A study of Mus musculus with 6 samples.

Results

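The matrix metalloproteinases (MMPs) and their inhibitors were examined here through 10 genes: the proteases *Mmp2*, *Mmp3*, *Mmp9*, *Mmp11*, *Mmp13* and *Mmp14*, the tissue inhibitors *Timp1*, *Timp2* and *Timp3*, and *Adam17*, a membrane sheddase that belongs to the related ADAM family and not to the MMPs. Members were found by gene symbol, which gave 10 rows of the 61880 in the gene table. The table is split into assembled loci, and the loci that carry the 10 symbols hold 17 rows. Each gene was therefore read both as its own row and as the sum of all rows of its locus, of which there were 53912 in all.

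RNA was sequenced in bulk from mammary epithelial cell preparations of female FVB/NJ mice at puberty, aged 6 to 8 weeks. The 3 *fat-1* samples came from mice carrying a *Caenorhabditis elegans* n-3 desaturase transgene that acts in the whole body and turns n-6 into n-3 polyunsaturated fatty acids, and the 3 WT samples came from mice without it. Both genotypes were kept lifelong on the parental diet, a modified AIN93G diet with 10% fat by weight (22% of kcal) from safflower oil, so n-6 fat was supplied to all mice. Every sample pooled the inguinal gland cells of several mice, freed by collagenase and hyaluronidase, trypsin and dispase with no cell sorting described. A sample thus describes a pool and not a mouse, and the transgene itself was not analysed here. The paper describes a digestion of many hours before RNA was extracted. All levels are those after this digestion, and its part in them was not tested.

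Total counts ranged from 204539059 to 232148824 per sample, so that 1 count was worth 0.00441 to 0.00486 CPM, the count scaled to a fixed library size. Luminal keratins and fibroblast genes were both abundant in the libraries labelled as epithelial cells. The summed level of 7 luminal markers, among them *Krt8* and *Krt18*, was 694 to 2890 CPM in *fat-1* and 723 to 2310 CPM in WT. The summed level of 6 fibroblast markers, among them *Dcn* and *Lum*, was 1220 to 2970 CPM in *fat-1* and 2330 to 3020 CPM in WT. No marker of either list was at 0 in any sample, whereas 5 adipocyte markers together reached at most 1.65 CPM. *fat-1* sample 1 stood apart with the lowest fibroblast sum and the highest luminal sum.

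MMPs are zinc proteases that are made as inactive proenzymes and cut collagens, laminins, fibronectin and cell surface proteins once their propeptide is removed. TIMPs bind the active site and block it, and the cell surface protease MMP14 activates proMMP2 with TIMP2 as the bridge between them. During puberty, mammary ducts grow into the fat pad through matrix that these enzymes remodel, and ADAM17 releases amphiregulin from the epithelium, a ligand of the EGF receptor of the stroma.

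The promoters of *Mmp3* and *Mmp13* are shown because these neighbours in the MMP cluster of chromosome 9 were the 2 of 8 members with a RefSeq promoter entry that held the AP-1 sequence TGAGTCA, read on both strands (as TGACTCA on the other strand). Each line gives the last 80 bases before the start site on GRCm38.p6, on the plus strand, with the AP-1 letters in capitals, for *Mmp3* at chr9:7445742-7445821 and for *Mmp13* at chr9:7272434-7272513.
Mmp3: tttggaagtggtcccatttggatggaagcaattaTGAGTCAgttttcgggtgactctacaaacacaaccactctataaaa
Mmp13: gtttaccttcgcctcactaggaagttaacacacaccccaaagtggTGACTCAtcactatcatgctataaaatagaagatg
The first letter of the match lay 46 bases before the start in *Mmp3* and 35 bases before it in *Mmp13*. The sequence occurred in 4.46% of the 32851 promoter windows of the same 250 bases. Counted by gene, as for the members, 5.16% of 27025 genes had it in any of their windows. The *Mmp3* and *Mmp13* windows were also the poorest in G and C of the 8, at 37.6% and 40.4%, and the others ranged from 54.4% in *Timp1* to 70.4% in *Adam17*. A match describes the letters only and is not evidence of binding.

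The members differed far more from each other than between genotypes. Levels between genes were compared as CPM per kb of merged exons, on the row with the symbol plus any row of its locus without one. *Mmp3*, the stromelysin that cuts many matrix proteins and activates other proMMPs, had the highest level at 2130 ± 586 CPM per kb (SD, n = 6 samples). Its locus took 0.264% to 0.557% of all counts of a sample. *Mmp2* (130 ± 50.5), *Mmp14* (119 ± 35.3) and *Timp1* (109 ± 47.7 CPM per kb, SD, n = 6 each) followed, and their ranges overlapped. *Timp2* reached 43.3 ± 8.96 CPM per kb and *Adam17* 16.1 ± 1.23 CPM per kb (SD, n = 6 each). *Mmp13* (10.6 ± 2.86) and *Timp3* (9.14 ± 0.877 CPM per kb, SD, n = 6 each) were lower. *Mmp11* came to 7.97 ± 1.28 and *Mmp9* to 1.21 ± 0.316 CPM per kb (SD, n = 6 each). The *Mmp11* level is nearly all from a row without a symbol in a locus shared with *Smarcb1*, and the *Mmp11* row alone was at 0.146 ± 0.107 CPM per kb (SD, n = 6), below every *Mmp9* value. Whether the rows without a symbol are transcripts of the named gene cannot be told from the table, for *Mmp2*, *Mmp3* and *Mmp14* as for *Mmp11*. On the rows with the symbol alone, *Mmp3* was still the highest, with a mean of 534 CPM per kb. *Mmp14* (112), *Timp1* (109) and *Mmp2* (106 CPM per kb) then followed in that order.

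The order was firm at some steps only. *Mmp3* exceeded *Mmp2* in 6 of 6 samples with no overlap of their ranges, and *Timp2* exceeded *Adam17* and *Mmp11* exceeded *Mmp9* in the same way, the last only with the unnamed row of the *Mmp11* locus. *Timp1* exceeded *Timp2*, and *Adam17* exceeded *Mmp13*, in 6 of 6 samples with overlapping ranges. *Timp3* exceeded *Mmp11* in 5 of 6. *Mmp2* exceeded *Mmp14* in 5 of 6 samples, *Mmp14* exceeded *Timp1* in 4 of 6, and *Mmp13* exceeded *Timp3* in 3 of 6, so these neighbours did not differ beyond their spread. With the longest transcript as the length in place of merged exons, *Mmp14* came to 218 CPM per kb and passed *Mmp2* at 142 CPM per kb, and *Timp3* at 15.8 CPM per kb passed *Mmp13* at 10.6 CPM per kb.

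**Figure D1:**
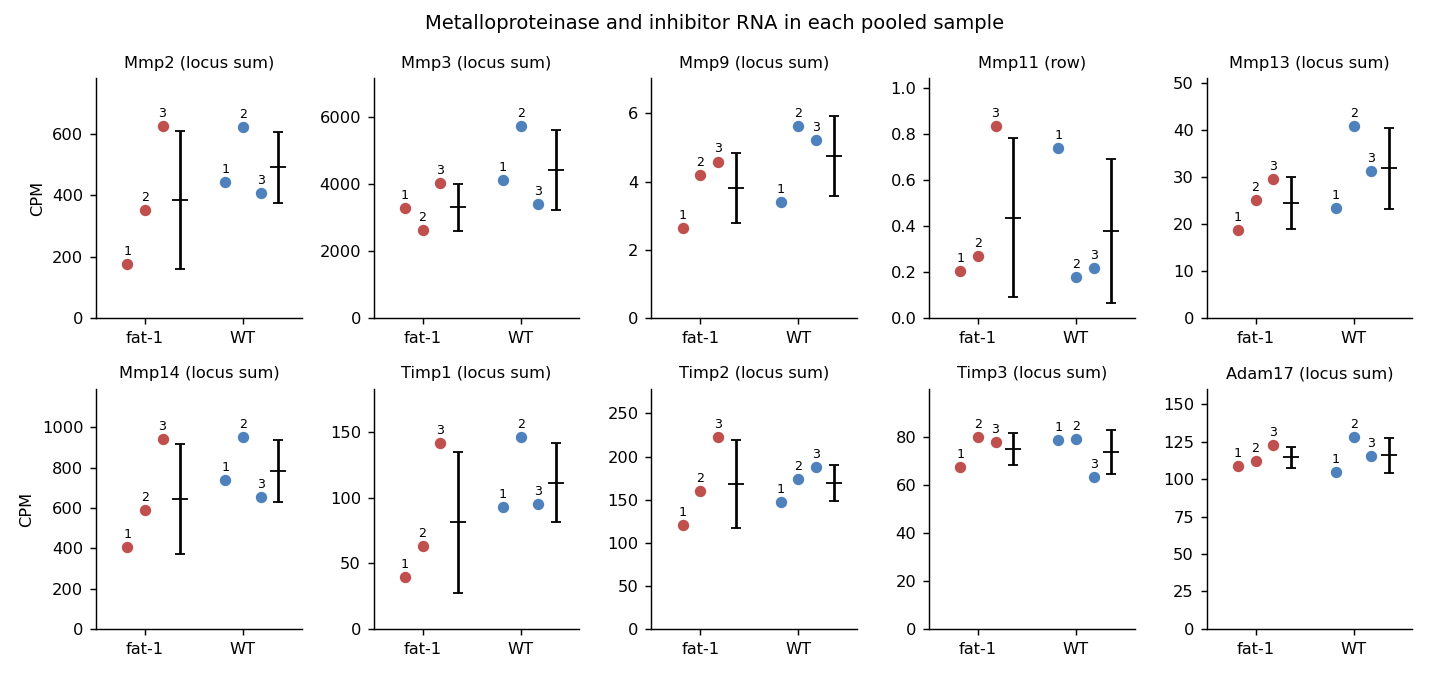
Level of each member in CPM (linear axes from 0, one scale per panel) in the 3 fat-1 and 3 WT samples, numbered as labelled, with black bars for the mean ± SD. The groups overlap in every panel, and fat-1 sample 1 is the lowest of the 6 for Mmp2, Mmp9, Mmp13, Mmp14, Timp1 and Timp2.

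Between genotypes, no member was called. With p-values of edgeR's quasi-likelihood test adjusted by Benjamini-Hochberg, 0 of 10 member loci passed an adjusted p of 0.05, against 0 of all 24061 loci tested (0%), and the smallest adjusted p of any locus was 1. At an unadjusted p of 0.05, 0 of 10 members passed, against 274 loci (1.14%). For rows the counts were 0 of 10 members against 0 of 30683 rows (0%) at the adjusted threshold, and 0 of 10 against 678 rows (2.21%) unadjusted. DESeq2 called 8 loci and 93 rows at an adjusted p of 0.05, and edgeR's exact test 6 loci and 32 rows. The groups overlapped for all 10 member loci, whereas they did not overlap for 998 of the loci tested (4.15%). In 9 of 10 member loci the estimate was lower in *fat-1*, with a median log2 fold change of -0.30, against 11883 of 24061 lower and a median of 0.0018 over all loci. For the rows with the symbols, 7 of 10 were lower with a median of -0.10, against 14984 of 30683 and 0.0049 over all rows. The members vary together across samples, so these 9 are not separate observations, and without *fat-1* sample 1 the count for loci was 6 of 10.

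The gelatinases MMP2 and MMP9 cut denatured collagen and basement membrane collagen. *Mmp2* (chromosome 8, 92827291 to 92853420, plus strand, GRCm38) had locus levels of 176, 353 and 624 CPM in *fat-1* and 441, 622 and 408 CPM in WT. *fat-1* sample 1 was the lowest and *fat-1* sample 3 the highest of all 6, so the *fat-1* samples enclosed the WT range. The log2 fold change was -0.35 (SE 0.44, 95% interval -1.41 to 0.71), with an unadjusted edgeR quasi-likelihood p of 0.452. Without *fat-1* sample 1 it was 0.0011, without WT sample 2 it was -0.14, and without *fat-1* sample 3 it was -0.89 with an unadjusted p of 0.0504. In bulk RNA, fewer cells of a type and less RNA per cell cannot be told apart, here and in all results that follow.

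*Mmp9* (chromosome 2, 164940780 to 164955850, plus strand) was low, at 2.64, 4.20 and 4.59 CPM in *fat-1* and 3.40, 5.62 and 5.23 CPM in WT. These levels rest on 557 to 1272 counts, so counting error was small beside the spread between samples. The sample labelled 1 was the lowest of its group in both genotypes. The log2 fold change was -0.32 (SE 0.28, 95% interval -1.001 to 0.37). It was -0.10 without *fat-1* sample 1, -0.18 without WT sample 2 and -0.51 without WT sample 1.

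*Mmp3* (chromosome 9, 7445822 to 7455975, plus strand) had locus levels of 3266, 2613 and 4024 CPM in *fat-1* and 4107, 5709 and 3389 CPM in WT. WT sample 2 was the highest and *fat-1* sample 2 the lowest, and *fat-1* sample 3 lay above WT sample 3. The log2 fold change was -0.42 (SE 0.23, 95% interval -0.97 to 0.14), with an unadjusted edgeR quasi-likelihood p of 0.121, the smallest of the 10 member loci. Without WT sample 3 it was -0.56 with an unadjusted p of 0.0451, without WT sample 2 it was -0.18 with an unadjusted p of 0.397, and without *fat-1* sample 2 it was -0.27. The locus includes *Mmp10*, the neighbouring stromelysin, whose row held 0.310% to 0.464% of its counts.

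*Mmp13* (chromosome 9, 7272514 to 7283331, plus strand) encodes the collagenase that opens fibrillar collagen in rodents. Its levels were 18.7, 25.2 and 29.7 CPM in *fat-1* and 23.5, 40.8 and 31.3 CPM in WT, and WT sample 1 lay below both higher *fat-1* samples. On the log2 scale the fold change was -0.38 (SE 0.25, 95% interval -0.99 to 0.23). It was -0.21 without *fat-1* sample 1, -0.16 without WT sample 2 and -0.55 without WT sample 1.

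*Mmp14* (chromosome 14, 54431612 to 54445364, plus strand), the membrane-bound activator of proMMP2, had locus levels of 405, 588 and 941 CPM in *fat-1* and 741, 952 and 654 CPM in WT. The samples stood in nearly the same order as for *Mmp2*, with *fat-1* sample 1 lowest and *fat-1* sample 3 and WT sample 2 highest. Its log2 fold change was -0.28 (SE 0.31, 95% interval -1.03 to 0.48). Without *fat-1* sample 3 it was -0.66 with an unadjusted edgeR quasi-likelihood p of 0.0351, whereas leaving out *fat-1* sample 1 gave -0.03 and leaving out WT sample 2 gave -0.11.

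*Mmp11* (chromosome 10, 75923222 to 75936496, minus strand), the stromelysin of stromal cells next to epithelium, had few counts under its own symbol. Its row held 43, 58 and 173 counts in *fat-1* and 158, 40 and 45 counts in WT, which is 0.177 to 0.832 CPM. One sample of each genotype was high and the others were low. For the row, the log2 fold change was 0.20 (SE 0.77), and leaving out single samples moved it from -0.67 to 1.14. The *Mmp11* locus sum, 56.1 to 65.8 CPM, was divided between the row of *Smarcb1* with 55.7% to 69.0%, a row without a symbol with 30.7% to 43.2% and the *Mmp11* row with 0.287% to 1.26%. The unnamed row was at 18.2 to 27.4 CPM, with a log2 fold change of -0.15 (SE 0.19), and may belong to either gene.

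Of the inhibitors, *Timp1* (chromosome X, 20870166 to 20874735, plus strand) varied most. Its levels were 39.2, 62.8 and 142 CPM in *fat-1* and 93.2, 146 and 95.4 CPM in WT, a span of 3.73-fold over all samples. *fat-1* samples 1 and 2 lay below every WT sample, and *fat-1* sample 3 lay next to the highest of them. The log2 fold change was -0.46 (SE 0.47, 95% interval -1.60 to 0.68), with an unadjusted edgeR quasi-likelihood p of 0.368. Without *fat-1* sample 3 it was -1.13 with an unadjusted p of 0.0134, and it was -0.12 without *fat-1* sample 1, -0.21 without WT sample 2 and -0.30 without *fat-1* sample 2, so single samples set its size.

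*Timp2* (chromosome 11, 118301069 to 118355740, minus strand) was at 121, 160 and 223 CPM in *fat-1* and 147, 173 and 187 CPM in WT. The means were 168 ± 51.2 and 169 ± 20.6 CPM (SD, n = 3 each), and the log2 fold change was -0.01 (95% interval -0.56 to 0.54). The *fat-1* samples enclosed the WT range, as for *Mmp2*.

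*Timp3* (chromosome 10, 86300372 to 86349506, plus strand), the TIMP that stays bound to matrix and also blocks ADAM17, was among the steadiest members. Its levels were 67.4, 79.9 and 77.8 CPM in *fat-1* and 78.7, 79.3 and 63.3 CPM in WT, with a log2 fold change of 0.03 (95% interval -0.28 to 0.33). *Adam17* (chromosome 12, 21323509 to 21373632, minus strand) was steadier still, at 109, 112 and 123 CPM in *fat-1* and 104, 128 and 115 CPM in WT. Its log2 fold change was -0.02 (95% interval -0.27 to 0.24). These are the narrowest intervals of the members apart from the *Mmp11* locus, which is mostly *Smarcb1*. Wide intervals for *Mmp2*, *Timp1* and *Mmp14* leave changes of either sign possible. In the annotation *Timp1* lies inside *Syn1* and *Timp3* inside *Syn3*, both on the opposite strand. *Mmp11* overlaps *Chchd10*, and *Adam17* overlaps *Iah1* and *Gm22766*, likewise on the opposite strand, while *Timp2* overlaps *Cep295nl* on its own strand, where no strand setting separates reads. The strand setting of the counting is not given in the sources used here.

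**Figure D2:**
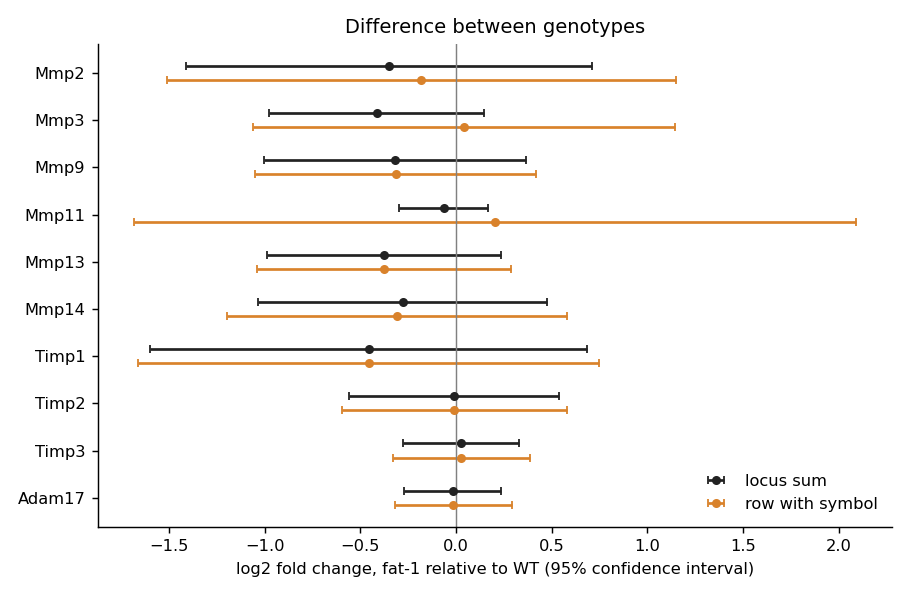
Log2 fold change of each member, fat-1 relative to WT, with 95% confidence intervals from edgeR, for the locus sum (black) and the row with the symbol (orange). Every interval spans 0, and the row of Mmp3 lies at 0.04 while its locus sum lies at -0.42.

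How the table divides a locus mattered for 4 members. For *Mmp3*, the row with the symbol held 17.1%, 62.0% and 18.5% of the locus in *fat-1* and 24.3%, 21.3% and 18.7% in WT, and most of the rest lay in a row without a symbol. *fat-1* sample 2 thus had the highest *Mmp3* row of all samples, 1620 CPM, and the lowest locus sum. The *Mmp3* row gave a log2 fold change of 0.04 (SE 0.45), opposite in sign to that of its locus. For *Mmp2*, the symbol row held 84.9% to 89.3% of the locus in 5 samples and 51.2% in WT sample 3, where the unnamed row held 48.8%. For *Mmp14*, it held 94.0% to 95.3% in 5 samples and 83.4% in *fat-1* sample 1, and the row of *Mrpl52* held 0.656% to 1.38%. The loci of *Mmp9*, *Mmp13*, *Timp1*, *Timp2*, *Timp3* and *Adam17* had a single row.

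**Figure D3:**
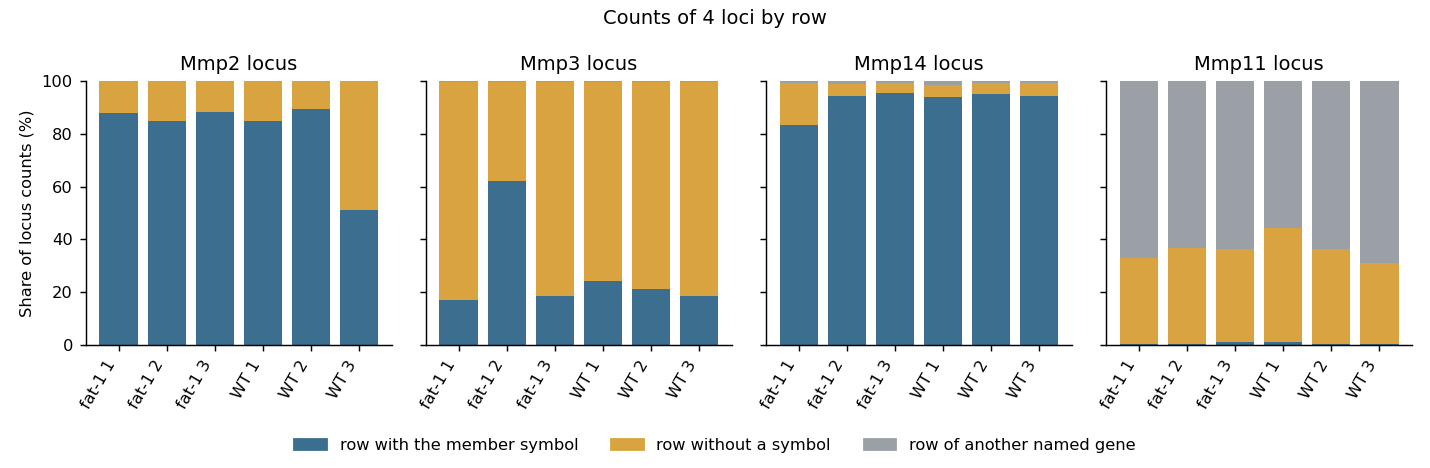
Share of the counts of 4 loci (percent, from 0 to 100) in the row with the member symbol, in rows without a symbol and in rows of another named gene, for each sample. The Mmp3 row holds 62.0% in fat-1 sample 2 and 17.1% to 24.3% elsewhere, and the Mmp11 row is hardly visible.

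Ratios between a protease and its inhibitor were computed in each sample on CPM per kb, and are given as a description. As for the levels, rows of a locus without a symbol were included. *Mmp14* stood at 2.17, 2.37 and 2.74 times *Timp2* in *fat-1* and at 3.25, 3.56 and 2.26 times in WT, with overlapping groups. *Mmp2* to *Mmp14* was nearly constant at 1.07 to 1.18 in 5 samples, with 0.775 in *fat-1* sample 1. With the longest transcript as length, a choice added after seeing the data, it was 0.461 to 0.702, so which of them is higher depends on the length used. *Mmp14* to *Timp2* then averaged 4.78 over the 6 samples in place of 2.73, and the other ratios moved by less than their SD. *Mmp3* exceeded *Timp1* by 40.9, 20.4 and 13.9 times in *fat-1* and by 21.7, 19.2 and 17.4 times in WT, so the *fat-1* samples enclosed the WT range. Without the row that has no symbol, *Mmp3* was at 310 to 899.5 CPM per kb in place of 1445 to 3155. The size of the *Mmp3* to *Timp1* ratio therefore depends on that row. *Mmp9* to *Timp1* was at most 0.0169, and *Mmp13* to *Timp1* at most 0.158. *Adam17* to *Timp3* was 1.74 ± 0.125 in *fat-1* and 1.81 ± 0.282 in WT (SD, n = 3 each).

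**Figure D4:**
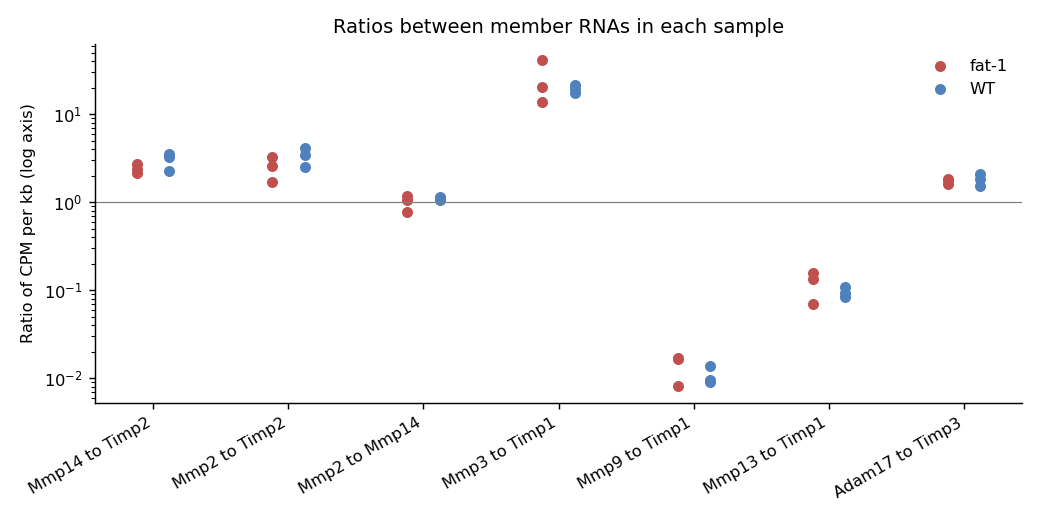
Ratios of CPM per kb (log axis, rows without a symbol included) between pairs of members in the 3 fat-1 and 3 WT samples. Each point is a sample and the grey line a ratio of 1. The groups overlap for every pair, and the Mmp3 to Timp1 ratio spreads from 13.9 to 40.9 within fat-1.

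Several members followed the fibroblast markers from sample to sample. The mean log2(CPM + 1) of the 7 fibroblast markers was 6.32, 7.51 and 7.82 in *fat-1* and 7.19, 7.82 and 7.60 in WT. Over the 6 samples, Pearson's r with this mean was 0.926 for *Mmp2* (Spearman's rho 0.771), 0.871 for *Mmp14* (rho 0.829) and 0.878 for *Timp1* (rho 0.943). Exact permutation p-values for r were 0.0194, 0.0208 and 0.0208 in that order, each 0.104 after adjustment over 30 relations, and those for rho were 0.103, 0.0583 and 0.0167. Without the 2 samples farthest from the median of the markers, *fat-1* sample 1 and WT sample 1, r was 0.999, 0.997 and 0.981. The few samples left had marker means of only 7.51 to 7.82. No r with 2 samples left out was tested, so these values are a description. *Mmp9* had r = 0.924 (rho 0.943), which fell to 0.509 without those samples, so its size depends on them. For *Timp2* r was 0.89 and fell to 0.612, and for *Mmp13* it was 0.87 and fell to 0.709. *Adam17* had r = 0.703 (rho 0.943) and 0.951 without those samples. *Mmp3* had r = 0.367 (rho 0.543) and 0.894 without them, the *Mmp11* locus r = 0.634 (rho 0.429) and 0.795, and *Timp3* r = 0.403 (rho 0.2) and 0.287. None of the 30 relations, by r or by rho, passed an adjusted p of 0.05. With luminal and basal markers r lay between -0.639 for *Mmp9* and 0.429 for *Mmp3*, with exact permutation p-values of 0.186 to 0.864. Without the 2 samples farthest from their median, *fat-1* sample 2 and WT sample 3, r was negative for all 10 members, from -0.971 for *Adam17* to -0.483 for *Timp3*, and *Mmp3* turned to -0.609. With immune markers r lay between -0.403 for *Mmp3* and 0.661 for *Mmp9*, with exact permutation p-values of 0.154 to 0.926, and without *fat-1* samples 1 and 2 between -0.903 for *Timp3* and 0.607 for *Mmp9*. Some of these immune markers, such as *Cd68* and *Cd79a*, were read through loci that also hold another gene. The part of the fibroblast content in the genotype estimates was not tested.

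**Figure D5:**
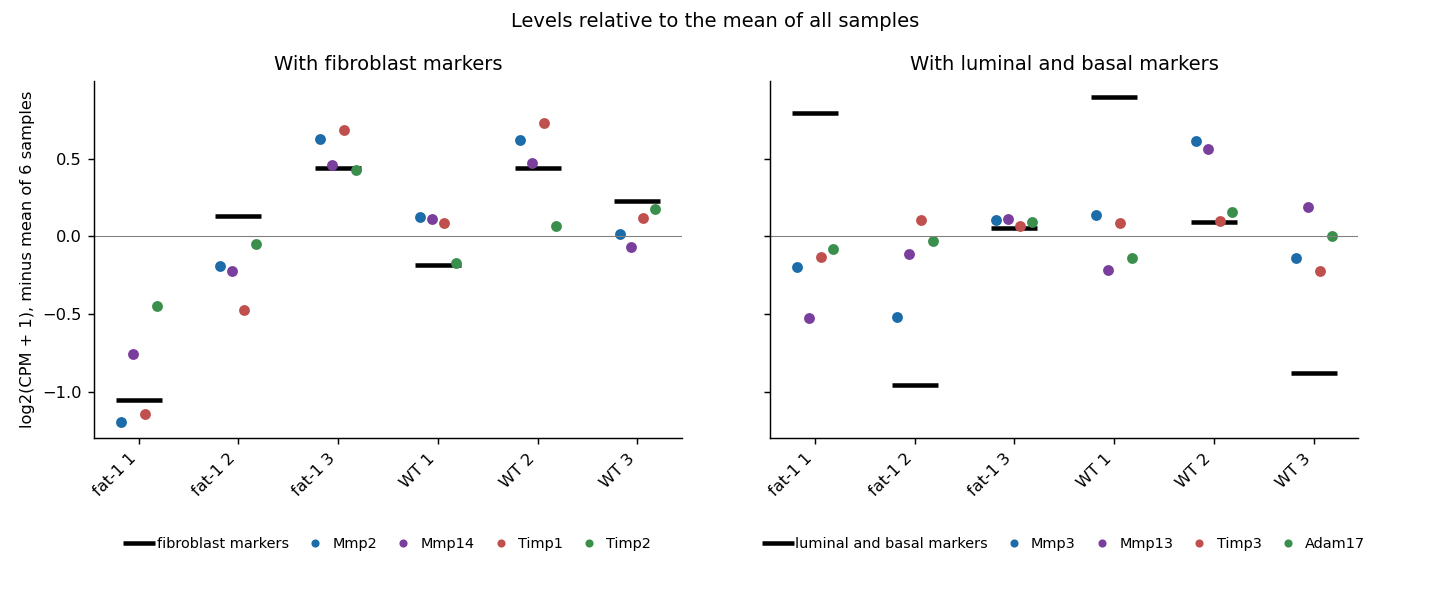
Level of 8 members (points) and mean level of marker genes (black bars) in each sample, as log2(CPM + 1) minus the mean of the 6 samples. Mmp2, Mmp14 and Timp1 lie with the fibroblast markers at the bottom in fat-1 sample 1, and Adam17 and Timp3 stay near 0 while luminal and basal markers spread widely.

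The gene most like each member among 131 listed genes was the one with the smallest root mean square difference of centred log2(CPM + 1) over the 6 samples. For *Mmp14* it was *Dcn*, at 0.0876, where *Mmp14* itself varied with an SD of 0.463. For *Mmp2* and *Timp1* it was *Lum*, at 0.116 and 0.159, where their SDs were 0.672 and 0.715. *Dcn* and *Lum* encode small proteoglycans of collagen fibres and are markers of fibroblasts. For *Mmp9* and *Mmp13* it was *Adgre1*, a macrophage marker, at 0.0985 and 0.0746, and the summed level of 4 macrophage markers was 6.3 to 15.8 CPM in *fat-1* and 8.29 to 16.1 CPM in WT. For *Mmp3* it was *Tek*, a receptor of endothelial cells, at 0.182 beside an SD of 0.382. For the *Mmp11* locus it was *Furin*, a proprotein convertase, at 0.0444 beside an SD of 0.0879. *Timp2* went with *Mmp27* (0.105), *Timp3* with *Retn* (0.0765) and *Adam17* with *Mmp16* (0.0558), beside SDs of 0.3, 0.142 and 0.108. These last partners were at most 1.33, 0.444 and 0.327 CPM, and *Adgre1* was at 1.45 to 4.04 CPM over the samples. Log2(CPM + 1) flattens such low levels. A small difference thus does not mark a cell type, for *Adgre1* as for the last partners.

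The rest of the pathway showed no called difference either, with 0 genes at an unadjusted p of 0.05 in edgeR's quasi-likelihood test in each list named here. Of 17 other MMPs, 15 passed the filter on low counts, 10 lower and 5 higher in *fat-1*, with a median log2 fold change of -0.15. The lower ones include *Mmp10*, which was read through the locus it shares with *Mmp3*. Its estimate of -0.42 is thus that of the member *Mmp3* again and not a separate one. *Mmp12*, the macrophage elastase, was at 25.1, 19.5 and 44.1 CPM in *fat-1* and 35.1, 64.7 and 35.6 CPM in WT, with a log2 fold change of -0.61 (SE 0.38). *Mmp23*, whose locus also holds *Mib2*, had a log2 fold change of 0.02, and *Mmp7* and *Mmp20* fell below the filter. Of 4 other inhibitors, 2 were higher and 2 lower, and *Reck*, a membrane-anchored MMP inhibitor, had a log2 fold change of -0.08, *Tfpi2* one of -0.14 and the barely detected *A2m* one of 0.37. Of 10 genes of the plasminogen system and proMMP activation, 7 were lower and 3 higher, and *Serpine2*, an inhibitor of plasminogen activators, had a log2 fold change of -0.50 (SE 0.39). *Plg*, plasminogen itself, had a log2 fold change of 0.73 but was barely detected, at 0.0243 to 0.121 CPM.

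Around *Adam17*, 7 other ADAM sheddases gave 4 higher and 3 lower estimates, with log2 fold changes of -0.08 for *Adam10*, -0.12 for *Adam9* and 0.16 for *Adam8*. Of 8 cofactors and shed ligands of ADAM17, 6 were higher and 2 lower, with a median log2 fold change of 0.11. The EGF receptor ligand *Ereg* was 10.9, 7.16 and 20.2 CPM in *fat-1* and 16.3, 37.7 and 15.4 CPM in WT, with a log2 fold change of -0.86 (SE 0.50), and *Tnf*, the cytokine for which ADAM17 was named, had one of 0.26. Of 8 ADAMTS proteases, 7 were lower, with *Adamts4*, an aggrecanase, at -0.43 (SE 0.28) and *Adamts9* at -0.26. Of 12 matrix substrates, 10 were lower, with a median of -0.17, and the laminin chains *Lamb1* and *Lama1* stood at -0.26 and 0.38. Of 9 genes known to respond to tissue dissociation, 7 were lower and 2 higher, with a median of -0.06. Among them, *Egr1* and *Atf3* had estimates of -0.25 and -0.06. *Hspa1a* and *Hspa1b* share a locus that also holds other genes, so the 9 genes stand for 8 loci. The estimate of that locus, -0.055, entered the counts and the median for both genes.

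Cell type markers differed in direction from list to list, and no marker passed an unadjusted p of 0.05 in edgeR's quasi-likelihood test. All 7 fibroblast markers had lower estimates in *fat-1*, with a median log2 fold change of -0.14 and values of -0.32 for *Dcn*, -0.33 for *Lum* and -0.43 for *Pdgfra*. For each of them *fat-1* sample 1 was the lowest sample. The other *fat-1* samples both lay above the WT mean for *Dpt*, *Fbln1*, *Mfap5* and *Clec3b*. They lay on either side of it for *Dcn*, *Lum* and *Pdgfra*. Of 5 endothelial markers, 4 were lower with a median of -0.26, among them *Emcn* (-0.38, unadjusted p = 0.0522) and *Cdh5* (-0.26, unadjusted p = 0.0541), while *Pecam1* was at -0.0031. *Cdh5* and *Tek* were the 2 of 5 whose groups did not overlap, beside 4.15% of all loci. All 6 lymphocyte markers were higher with a median of 0.14, and *Ptprc*, *Cd3e* and *Cd79a*, whose loci each hold another gene, stood at 0.17, 0.09 and 0.13. Of 7 basal markers, 5 were higher with a median of 0.24, with *Krt5* at 0.48, *Krt14* at 0.36, *Trp63* at -0.73 and *Oxtr* at -0.76. The *Krt14* locus also holds *Krt16*. Of 8 luminal markers, 5 were lower with a median of -0.19, with *Krt8* at 0.20, *Krt18* at 0.23, *Kit* at -0.24 and *Elf5* at -0.67. Among the lower ones, the *Prlr* locus also holds *Agxt2*. Macrophage markers were split 3 higher to 4 lower (*Adgre1* -0.36, *Csf1r* -0.13) and neutrophil markers 3 to 3 (*S100a8* -0.05, *S100a9* 0.08, *Ly6g* -0.25, *Retnlg* -0.94). The higher macrophage markers include *Cd68* at 0.0065, whose locus also holds *Eif4a1*. That locus was at 668 to 860 CPM, far above the other macrophage markers, so its estimate is not that of *Cd68* alone. Pericyte markers were split 2 to 2 (*Rgs5* -0.20, *Cspg4* -0.09), and adipocyte markers, all near 0 CPM, 3 to 2 (*Adipoq* 0.04, *Plin1* -0.34, *Retn* -0.15). The part of these cell types in the members' estimates was not tested.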

How the data were processed

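The authors aligned paired reads to GRCm38 by HISAT2, passed the alignments to StringTie for assembly and quantification, and deposited a table of read counts per gene (whole numbers, not normalized) for the 6 samples. The annotation release, tool versions and strand setting are not given in the sources used here. Counts were summed per locus, scaled to CPM with TMM library sizes, and filtered with filterByExpr, which kept at least 99.983% of the counts of a sample. *fat-1* was compared with WT by edgeR 4.0.16 (quasi-likelihood test, Benjamini-Hochberg adjustment over all loci or all rows, threshold 0.05) in R 4.3.3, after a check on simulated counts. DESeq2 1.42.0, edgeR's exact test, other scalings, no filter, a replicate block and each sample left out were alternatives. Correlations used exact permutation tests. Positions and exon lengths came from GENCODE M21 (GRCm38), and promoters from RefSeq for GRCm38.p6. All members and their locus rows were named, with, from each other list, the 2 genes of smallest unadjusted p, for the MMP, inhibitor and ADAM lists also the 2 highest per kb, the first 2 markers of each marker list, and the most alike gene of each member. Members and lists were chosen with earlier results of these data known. Samples are pools, so p-values measure the spread between pools, which may be partly technical. The intervals given for fold changes come from the edgeR fit and include this spread between pools.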

Additional observations from a re-analysis of the deposited data

How the results depend on the processing

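No member passed an adjusted p of 0.05 in any alternative run. The count of loci called was 0 by edgeR's quasi-likelihood test, 8 by DESeq2, 6 by edgeR's exact test and 0 to 1 with single samples left out; for rows it was 0, 93, 32 and 0 to 2. At an unadjusted p of 0.05, 274 of 24061 loci passed, and 579 of 36672 with no filter beyond any count; for rows it was 678 of 30683 and 1136 of 44496. Leaving out single samples gave 0 to 2 member loci and 0 to 1 member rows at that p. Of 140 re-estimates of member loci, 130 kept their sign, and of 130 of member rows, 114 did. Single samples also moved the *Mmp9* locus from -0.51 to -0.10 and the *Mmp13* locus from -0.55 to -0.16 with no change of sign. The log2 fold changes that turned sign ranged, with single samples left out, from -0.89 to 0.0011 for the *Mmp2* locus, -0.27 to 0.18 for *Timp2*, -0.0603 to 0.108 for *Timp3* and -0.0850 to 0.0601 for *Adam17*. For rows they ranged from -0.74 to 0.20 for *Mmp2*, -0.54 to 0.33 for *Mmp3*, -0.67 to 1.14 for *Mmp11*, -0.26 to 0.18 for *Timp2*, -0.0720 to 0.106 for *Timp3* and -0.0858 to 0.0616 for *Adam17*. The causes were not tested. Leaving the other named genes out of the loci, an alternative chosen after seeing the data, gave -0.41 for *Mmp3*, -0.14 for *Mmp11* and -0.28 for *Mmp14*.

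Samples with the same number did not all deviate together (correlations 0.799, -0.164 and 0.132), so the numbers were not taken to pair them, and *fat-1* sample 2 went best with WT sample 3 (0.789). With the replicate block, 0 loci and 0 rows were called, 376 loci and 784 rows passed an unadjusted p of 0.05, and the *Mmp3* row turned to -0.0559.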
